A study of Saccharomyces cerevisiae with 2 samples.

Results

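Beta-glucan is the main structural polysaccharide of the yeast cell wall, and this account follows 9 genes that make it, remodel it or regulate its synthesis. They were chosen by locus name: FKS1 (YLR342W), GSC2 (YGR032W), SMI1 (YGR229C), GAS1 (YMR307W), GAS3 (YMR215W), GAS5 (YOL030W), BGL2 (YGR282C), EXG1 (YLR300W) and KRE6 (YPR159W). Of these 9, 8 had a value in each comparison, among 6207 gene features in the table. GAS1, which encodes the best known glucan elongase of the wall, was not analysed here.

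The data come from budding yeast, Saccharomyces cerevisiae, measured on two-colour arrays, where RNAs carrying different dyes, Cy3 and Cy5, compete for each spot. The first comparison set an msg5 delta strain against a wild type of the laboratory strain BY4741, neither given pheromone. The second set the msg5 delta strain treated with alpha factor against the untreated msg5 delta strain, so both RNAs of that comparison lack MSG5 and it says nothing of the response of wild-type cells. MSG5 encodes a dual-specificity phosphatase that inactivates mitogen-activated protein kinases (MAPKs). Alpha factor is a peptide pheromone that prepares cells of the a mating type for mating. All cultures grew in rich medium (YPD) at 24 °C with shaking at 200 rpm after the overnight culture was diluted to an A600 of 0.2. In the first comparison both strains grew 2 h 30 min and then 2 h more, and for the second the cells grew 4 h and then 90 min with or without alpha factor, whose concentration the labels give as 50 mM. Each comparison rests on 4 arrays from 2 biological samples with the dyes swapped, which the authors condensed to a single value per feature. No replicate spread accompanies the values, so no difference was tested, and changes are described by their size and by their place among all genes.

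Values are log ratios. Those of the first comparison are deletion over wild type on a log2 scale, as the values themselves show. Those of the second are most likely alpha factor over no alpha factor and were taken as log2, but their values do not show the base: 7.97% gave ratios on a grid of 0.001, where 7.52% would by chance placement. Every fold, ratio and count past a fold given for alpha factor holds only if the base is 2, whereas ranks and signs do not depend on it. In that comparison turning the sign would turn every direction below. The treated RNA takes the same channel in the labels as the deletion does in the first comparison. Listed genes known to be induced by pheromone lay high, though that list was chosen with the values known. MSG5 stood at -2.51 in the deletion comparison, the lowest of 4969 genes, and at -0.09 with alpha factor, where it was missing from both RNAs. FIG1, a mating gene strongly induced by pheromone, stood at 3.33 in the deletion and 2.38 with alpha factor. Ratios give no level, so the mating type of the strain could not be checked from the levels of its marker genes. The median of all genes was -0.07 in the deletion and -0.05 with alpha factor. A guide to error between spots comes from genes with more than 1 feature. In the deletion the features of 25 such genes were apart by a median of 0.20 and a maximum of 0.61. With alpha factor those of 24 genes were apart by a median of 0.29 and a maximum of 0.68. Such features were read on the same arrays with the same RNAs, so this guide leaves out the spread between cultures. Each of the 8 glucan genes had a single feature.

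As background, beta-1,3-glucan is polymerised at the plasma membrane by a synthase whose catalytic subunit is encoded by FKS1 or GSC2 (also called FKS2) and which is activated by the GTPase Rho1. Enzymes outside the membrane then cut, elongate and branch the chains, and beta-1,6-glucan links them to mannoproteins and chitin. Rho1 also feeds the cell wall integrity MAPK cascade, whose kinase Slt2 is a substrate of Msg5. FKS1 is the main catalytic gene of growing cells, and GSC2 is known to be induced by wall stress, calcium and mating pheromone.

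None of the 8 genes changed 2-fold in either comparison, where 1.05% of all genes did in the deletion and 0.631% with alpha factor. The count of 0 with alpha factor rests on base 2: taken as natural logarithms the values put 1 of the 8 past 2-fold, and taken as base 10 logarithms 4. In the deletion none reached 1.5-fold, where 5.92% of all genes did in either direction. With alpha factor GAS3 alone passed 1.5-fold, on the low side, where 3.15% of all genes were lower by that much and 4.61% changed in either direction. A count of 1 in 8 genes is too small to read against those shares. The 8 genes had a median of 0.10 in the deletion and ranged between -0.33 and 0.49, against the median of -0.07 for all genes. With alpha factor their median was -0.18 and their range -0.70 to 0.31, against -0.05 for all genes. In the deletion 5 of the 8 lay above the median of all genes and 3 below it. With alpha factor 3 lay above and 5 below.

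**Figure D1:**
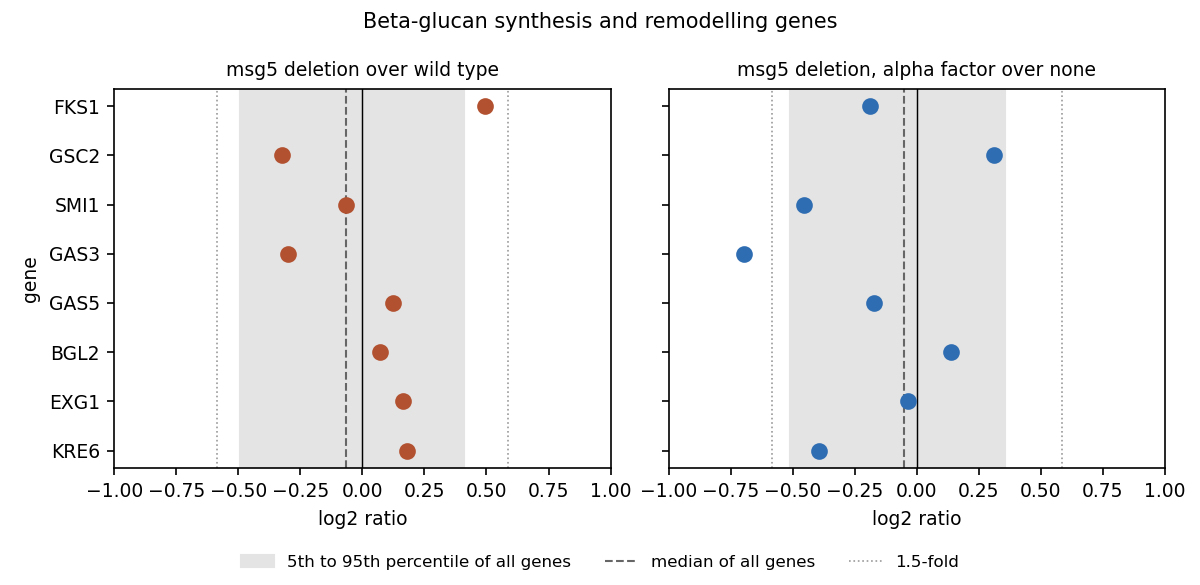
Log2 ratios of the 8 measured beta-glucan genes (1 condensed value each) in the deletion over wild type (left) and in the deletion with alpha factor over without (right), with the 5th to 95th percentile of all genes in grey. FKS1 at 0.49 lies right of the band in the deletion, GAS3 at -0.70 lies left of it with alpha factor, and the other points fall inside.

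The 2 synthase catalytic genes stood on opposite sides of zero in each comparison. FKS1 had a log2 ratio of 0.49 in the deletion, a ratio of 1.41 to wild type, which put it at rank 200 of 4969 genes and made it the only one of the 8 outside the 5th to 95th percentile of all genes (-0.49 to 0.41). GSC2, the second catalytic gene, stood at -0.33 there, a ratio of 0.798, with 13.5% of genes lower. The difference between them, FKS1 minus GSC2, was 0.82, above the largest difference between features of the same gene in that comparison (0.61).

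With alpha factor the order was the other way round. FKS1 stood at -0.19, with 27.5% of genes lower and within the bulk of genes. GSC2 stood at 0.31, a ratio of 1.24, the highest of the 8, with 6.4% of genes higher. FKS1 minus GSC2 was -0.50, above the median difference between features of a gene (0.29) but below the largest (0.68). FKS1 and GSC2 encode close paralogs, and how well their spots tell them apart was not tested. The third family member, FKS3, had no value in either comparison.

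SMI1, also known as KNR4, encodes a regulator that coordinates wall synthesis with growth and interacts with Slt2. Its value in the deletion, -0.07, was that of the median gene. With alpha factor SMI1 stood at -0.45, a ratio of 0.730, the second lowest of the 8 genes, with 7.0% of genes lower.

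On the list of synthase regulators and relatives, which includes FKS3, 4 of 6 genes had values. All 4 lay above the median of all genes in both comparisons. In the deletion TUS1, an exchange factor that activates Rho1, was higher by 0.80, and LRG1, a GTPase-activating protein that turns Rho1 off, was higher by 0.75. These were 2 of 4 genes at least 1.5-fold higher, where 2.84% of all genes were. The GTPase gene RHO1 itself stood at 0.12, and ROM1, another exchange factor, at 0.10. With alpha factor none of the 4 reached 1.5-fold, where 4.61% of all genes did. LRG1 stood at 0.47, RHO1 at 0.42, TUS1 at 0.09 and ROM1 at 0.09. The exchange factor gene ROM2 had no value.

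The GAS genes encode a family of cell surface proteins that includes glucanosyltransferases, which elongate beta-1,3-glucan chains. Whether the GAS3 product has that activity was not examined here. GAS3 was the lowest of the 8 with alpha factor at -0.70, a ratio of 0.617 or 1.62-fold lower with the pheromone, at rank 83 from the bottom of 4597 genes. If the deposited values were natural logarithms GAS3 would lie just past 2-fold lower, and if base 10 logarithms at -2.31 on the log2 scale. In the deletion GAS3 stood at -0.30, a ratio of 0.811, with 15.3% of genes lower. It was the farthest of the 8 from the medians of all genes over both comparisons. GAS5, a family member active in vegetative growth, stood at 0.12 in the deletion and -0.17 with alpha factor, inside the bulk of genes each time.

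Within the family, GAS3 minus GAS5 was -0.42 in the deletion and -0.52 with alpha factor, both above the median difference between features of a gene and below the largest. GAS2, which acts in spore wall assembly, stood at 0.26 in the deletion and 0.05 with alpha factor. With alpha factor GAS2 minus GAS3 was 0.75, above the largest such difference. Spot intensities were not used, so whether GAS2 gave a signal above background in these cultures was not checked. GAS4, the partner of GAS2 in the spore wall, had no value. GAS3 was thus below its measured relatives in both comparisons.

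The 3 genes nearest to GAS3 in the plane of both log2 ratios, among 4377 others, were RAP1, AIM11 and ALY1. RAP1, a general transcription factor of ribosomal protein and glycolytic genes, stood at -0.28 in the deletion and -0.71 with alpha factor, at a distance of 0.03. AIM11 stood at -0.28 and -0.71, and ALY1, an adaptor for endocytosis of transporters, at -0.33 and -0.67. Likeness over only 2 values is a description of position. The distances take the alpha factor values as log2, and the nearest genes were not sought again with another base.

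**Figure D2:**
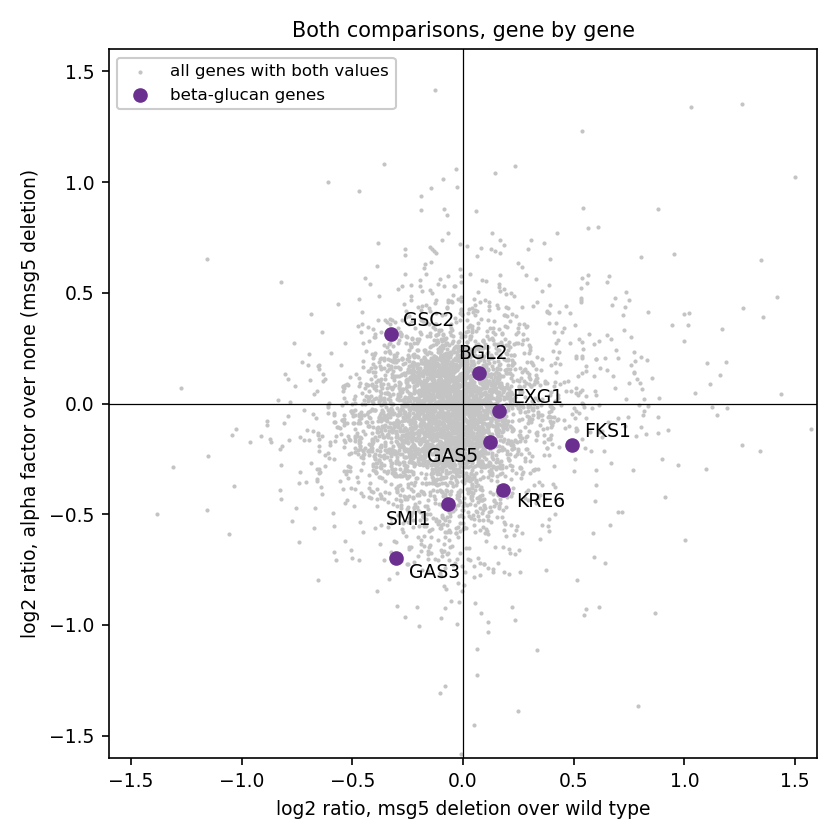
Log2 ratio in the deletion over wild type (x) and with alpha factor over without (y) for the 4378 genes with both values (grey, 11 of them beyond the axes at 1.6) and the 8 beta-glucan genes (purple, named). FKS1 lies to the right and slightly low, GSC2 to the upper left and GAS3 to the lower left.

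The secreted glucanases BGL2 and EXG1 lay inside the 5th to 95th percentile of all genes in both comparisons. BGL2, a major wall protein with endoglucanase and glucan-branching activity, stood at 0.07 in the deletion, a ratio of 1.05, with 25.5% of genes higher. With alpha factor BGL2 stood at 0.14, a ratio of 1.10, with 20.0% of genes higher. EXG1, the main exo-beta-1,3-glucanase of the culture medium and wall, stood at 0.16 and -0.03. With alpha factor EXG1 was nearly at the median gene, with 53.0% of genes lower. Of these 4 values, the farthest from the median of all genes in its comparison was that of EXG1 in the deletion, 0.23 above it.

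Their relatives were measured too. SCW4, of the BGL2 family, stood at 0.13 in the deletion and -0.01 with alpha factor, and SCW11, a family member made in daughter cells, at -0.07 and -0.06. SCW10 stood at -0.17 in the deletion and had no value with alpha factor. EXG2, a membrane-anchored exoglucanase, stood at 0.31 in the deletion and -0.07 with alpha factor. The sporulation exoglucanase SPR1 had no value. BGL2 minus SCW10 was 0.24 in the deletion, above the median difference between features of a gene (0.20) and below the largest. The other differences of BGL2 from SCW4 and SCW11, and of EXG1 from EXG2, were below that median in both comparisons.

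KRE6 encodes a membrane protein of the secretory pathway needed for beta-1,6-glucan. It stood at 0.18 in the deletion, a ratio of 1.13, with 13.7% of genes higher. With alpha factor it stood at -0.39, a ratio of 0.762, with 9.7% of genes lower. SKN1, its paralog, stood at 0.36 in the deletion and 0.20 with alpha factor. KRE6 minus SKN1 was -0.18 in the deletion, within the usual difference between features, and -0.59 with alpha factor, above the median difference and below the largest.

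**Figure D3:**
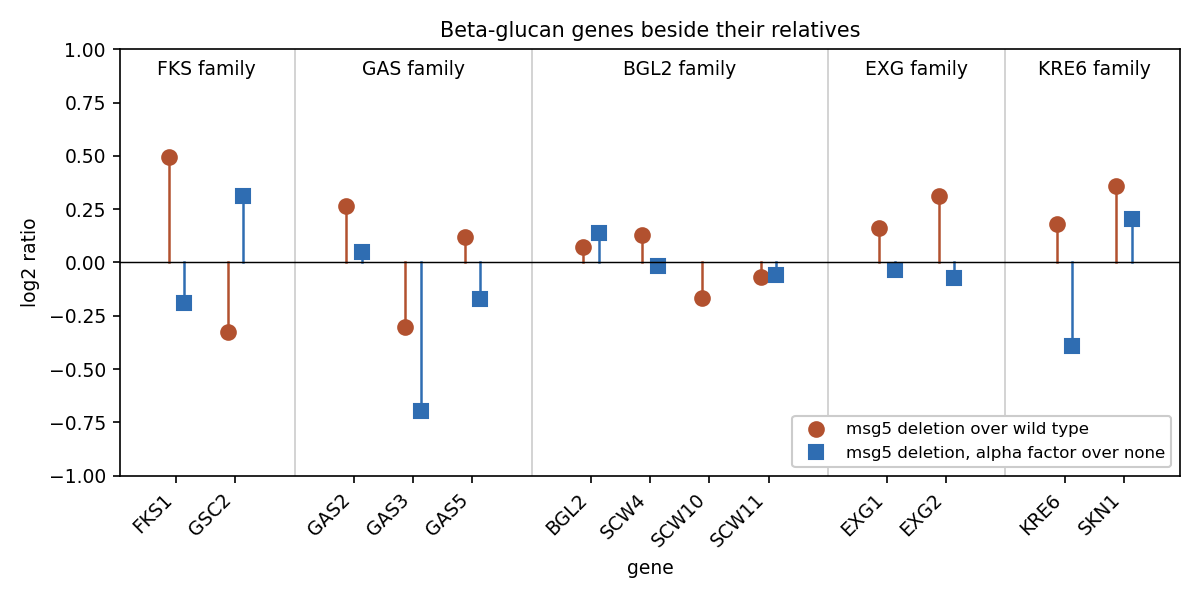
Log2 ratios of the beta-glucan genes and their measured relatives in the deletion over wild type (circles) and with alpha factor over without (squares), 1 value each. FKS1 and GSC2 lie on opposite sides of zero in each comparison, GAS3 is the lowest of its family in each, and the BGL2 and EXG families lie near zero with alpha factor.

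Ordered by value in the deletion, the genes ran FKS1, KRE6, EXG1, GAS5, BGL2, SMI1, GAS3 and GSC2. Only 2 steps of that order exceeded the median difference between features of the same gene: FKS1 over KRE6, by 0.31, and SMI1 over GAS3, by 0.23. The middle 5 genes, between KRE6 and SMI1, could not be ordered beyond that difference between spots at each step, and neither could GAS3 and GSC2. With alpha factor the order was GSC2, BGL2, EXG1, GAS5, FKS1, KRE6, SMI1 and GAS3, and no step between neighbours exceeded the median difference of 0.29. The largest step, 0.24, lay between SMI1 and GAS3.

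The genes can also be read by the values of each in both comparisons. FKS1 had 0.49 in the deletion and -0.19 with alpha factor, and KRE6 had 0.18 and -0.39. GSC2 was the only one of the 8 with a negative value in the deletion and a positive one with alpha factor. GAS3 and SMI1 were negative in both, and BGL2 was positive in both. The untreated deletion is over wild type in the first comparison and below the treated one in the second. Whether the same cultures served in both is not given in the sources used here, and growth times differed, so the pairs of values are set side by side without a test.

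The other listed glucan genes, synthase regulators included, ran from -0.19 to 0.80 in the deletion and from -0.54 to 0.55 with alpha factor. Their medians were 0.10 and 0.05, against 0.10 and -0.18 for the 8 genes. Of 17 further beta-1,3-glucan remodelling genes, 14 had values in each comparison, with medians of 0.11 in the deletion and 0.10 with alpha factor. None reached 1.5-fold in either, where 5.92% of all genes did in the deletion and 4.61% with alpha factor. CRH1, a transglycosylase that joins chitin to glucan, was the highest in the deletion at 0.56 and stood at 0.55 with alpha factor. SCW10 was the lowest in the deletion. With alpha factor the SUN family of wall proteins held both extremes: UTH1 stood at 0.55 and SUN4, a protein of cell septation, at -0.54, with NCA3 at 0.51 and SIM1 at -0.30.

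Of 11 further genes of beta-1,6-glucan assembly, 9 had values, with a median of 0.04 in the deletion and 0.00 with alpha factor. ROT2, the catalytic subunit of glucosidase II in the endoplasmic reticulum, was higher by 0.60 in the deletion and stood at 0.04 with alpha factor. It was the only gene of this list past 1.5-fold, where 5.92% of all genes were in the deletion and 4.61% with alpha factor. KRE5, an endoplasmic reticulum protein needed for the polymer, was the lowest in the deletion at -0.19. With alpha factor the lowest was KRE1, a wall glycoprotein, at -0.37 and the highest SKN1. Over the 3 glucan lists of 34 genes, 27 had values in each comparison, and 20 in the deletion and 19 with alpha factor lay above the median of all genes. By definition about as many of all genes lie above that median as below it. The 3 lists were chosen with earlier results of these data known, so these counts are no test of a shared direction.

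The supply of UDP-glucose, the sugar donor of glucan synthesis, was described by 6 genes, all measured. In the deletion their median was 0.15, and PGM2, the major phosphoglucomutase, was higher by 0.60. UGP1, which makes UDP-glucose, stood at 0.27 in the deletion and -0.32 with alpha factor. With alpha factor all 6 lay below the median of all genes, with a list median of -0.31, and GLK1, a glucokinase, was lower at -0.66. HXK2, the main hexokinase of growth on glucose, was the lowest in the deletion at -0.32, and PGM1 was the highest with alpha factor at -0.07.

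As a list, 14 known targets of the cell wall integrity pathway had a higher median than the 8 glucan genes in the deletion. GSC2, itself known to be induced by wall stress, was not on that list and stood at -0.33. Of 14 listed outputs, 11 were at least 1.5-fold higher in the deletion, where 2.84% of all genes were, with a median of 0.88. Those at least 2-fold higher were 4, where 0.785% of all genes were: PRM5, a pheromone-regulated membrane protein gene, at a ratio of 2.83, and on the log2 scale the kinase gene SLT2 at 1.42, its relative KDX1 at 1.10 and the yapsin protease gene YPS3 at 1.10. The list was chosen with the values known. FKS1, the highest of the 8 glucan genes at 0.49, lay below the median of that list and above only its members PIR1 at 0.03 and CIS3 at 0.22. With alpha factor the same list had a median of -0.06, close to the -0.05 of all genes, with 7 members above the median of all genes and 7 below. PRM5 was the highest at 1.02 and YPS1, a yapsin protease gene, the lowest at -0.95. These were the 2 members past 1.5-fold, where 4.61% of all genes were.

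The pheromone response genes listed as a check of direction, 9 in all, were above the median of all genes in both comparisons, with medians of 0.65 in the deletion and 0.55 with alpha factor. This list too was chosen with the values known, so it is not an independent check of direction. FIG1 and AGA1, an agglutinin anchor, were at least 2-fold higher in each, AGA1 at 2.02 and 1.39. Of all genes, 0.785% were that much higher in the deletion and 0.37% with alpha factor. GSC2, the glucan gene known for its induction by pheromone, stood at 0.31 with alpha factor. Of those 9 check genes only STE2, the pheromone receptor gene, at 0.25 and FAR1, of cell cycle arrest, at 0.15 lay below it.

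**Figure D4:**
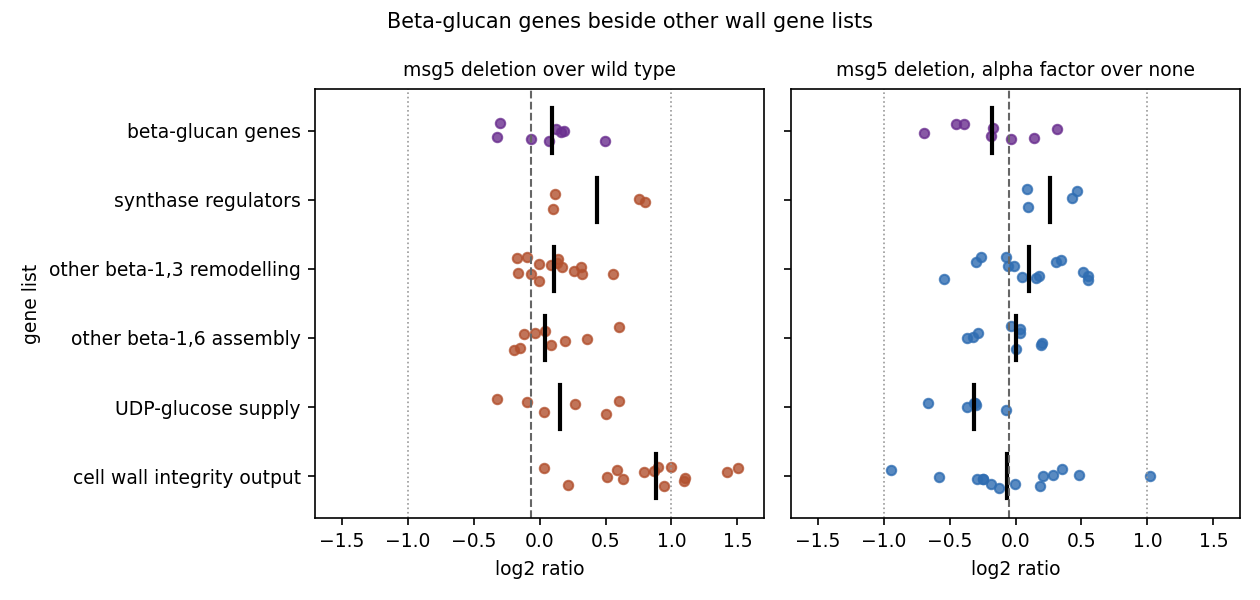
Log2 ratios of single genes (points) and list medians (bars) for the beta-glucan genes and 5 other lists in the deletion over wild type (left) and with alpha factor over without (right), where dashed lines mark the median of all genes and dotted lines 2-fold. The beta-glucan genes centre at 0.10 and -0.18, and the cell wall integrity outputs at 0.88 and -0.06.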

How the data were processed

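RNA from the msg5 deletion and wild type, and from the deletion with and without alpha factor, was hybridised to two-colour arrays. Per the labels, arrays were segmented with GenePix Pro 5.0 and 4 arrays per comparison were condensed by the authors. The sources used here do not name a normalization, a filter or a build. The deposited values are log ratios, taken as log2. Raised to base 2, 100.0% of the 5310 deletion values gave ratios on a grid of 0.001, against 7.52% for chance placement. With alpha factor 7.97% did, so its base is less certain.

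Features were named from the RefSeq R64 gene table, used for names and gene length: 5654 matched by locus tag and 57 by an older name. Features of a gene were averaged, giving 4969 and 4597 genes (Python 3.11.15, pandas 2.3.3). Array number limits the precision, and spot intensities were not used. Samples were grouped from the second channel's source label. Changes were counted at 2-fold and 1.5-fold (log2 of 1 and 0.585). Alternatives were centring, sign and base of the alpha factor values, and features by current name only. Adjustments for feature position (running median over 201 features) and gene length (10 groups) were also made. Both adjustments were tested on simulated data with a smooth position drift and a length trend, which need not match any in these arrays. Sequences and protein identities were not used here, since no sequence table was at hand.

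Named were all 9 genes, MSG5, context genes at least 2-fold changed, glucan and supply list members at least 1.5-fold changed or at a list's extremes, relatives, and the 3 genes nearest to the farthest of the 9. Other list genes (RHO1, ROM1, SIM1, NCA3, UGP1, PIR1, CIS3, YPS1, STE2 and FAR1) were named after their values were seen. All genes and lists were chosen with earlier results of these data known.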

Additional observations from a re-analysis of the deposited data

How the results depend on the processing

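Each of the 8 genes kept its value to within the median difference between features of the same gene (0.20 in the deletion, 0.29 with alpha factor) after centring, after adjustment for feature position, after adjustment for gene length and with features matched by current name only. So did the medians of the 8 genes (0.08 to 0.16 in the deletion, -0.18 to -0.13 with alpha factor), and, under centring and length adjustment, those of the 3 other glucan lists. Gene length went with the alpha factor values (Spearman's rho -0.23 across genes, which are not independent replicates), and GAS3 stood at -0.61 after that adjustment. If alpha factor values run the other way, with the sign turned, GAS3 stood at 0.70 and the median of the 8 genes at 0.18. Taken as natural logarithms, the alpha factor values gave 1 gene past 2-fold (GAS3) and 2 past 1.5-fold. Taken as base 10 logarithms, they gave 4 and 5, with a median of -0.60. At 1.5-fold in place of 2-fold the count with alpha factor was 1 against 0, and in the deletion 0 at both. No paired analysis was possible because each comparison has 1 condensed value per gene, and leaving out replicates was not possible either.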
